A study of Mus musculus with 12 samples.

Results

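Inhibitory neuron identity and GABA handling were followed through 7 genes, taken by symbol from the 15759 entries of the normalized count table: Gad1 and Gad2 for GABA synthesis, Slc32a1 for vesicular loading, Pvalb and Lhx6 for interneuron identity, Reln for a secreted protein of interneurons and granule cells, and Slc6a5 for glycine uptake. All 7 passed the minimum mean of 10 normalized counts, as did 15369 of the 15759 entries. The libraries hold poly-adenylated RNA of whole cortex or whole cerebellum from SCA1 KI mice, which carry 154 glutamine repeats in 1 Atxn1 allele and 2 in the other (Atxn1 154Q/2Q, expressed from the endogenous locus in all cells that use it), or from WT littermates, which gives 4 groups of 3 libraries. All mice were on a C57BL/6J background and 12 weeks of age. The labels list males, whereas the methods describe males and females. Libraries are named here by the letter or number of their column (WT cortex B, C and D, SCA1 KI cortex A, E and F, WT cerebellum 2, 4 and 6, SCA1 KI cerebellum 1, 3 and 5), and the sources do not state whether each came from 1 mouse, so p-values measure the spread between these libraries.

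Neurons that release GABA make it from glutamate with the glutamate decarboxylases GAD67 (Gad1) and GAD65 (Gad2), and load it into vesicles with the transporter VGAT (Slc32a1). In the cortex they are local interneurons: those from the medial ganglionic eminence depend on the transcription factor Lhx6, and a large subclass of fast-spiking cells holds the calcium buffer parvalbumin (Pvalb), while others secrete the glycoprotein reelin (Reln), which signals through lipoprotein receptors and the adaptor Dab1. In the cerebellum the inhibitory cells are Purkinje, basket, stellate and Golgi cells, granule cells are the main source of reelin, and Golgi cells and neurons of the deep nuclei use the glycine transporter GlyT2 (Slc6a5).

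Each library held between 29520855 and 51311309 reads on genes (median 36737495). Cbln1, which marks cerebellar granule cells, lay between 19365 and 27978 normalized counts in the cerebellum and between 162 and 395 in the cortex. Some libraries stood apart in genes of neighbouring tissue. SCA1 KI cortex F held 1916 normalized counts of Cdhr1, a gene of olfactory bulb mitral cells, against 275 to 732 in the other cortex libraries. Its summed level of a list of 9 olfactory bulb genes, Cdhr1 among them, was 20956 against 9063 to 11544. This list is not particular to the bulb: it summed to 19982 to 23241 in the WT and 28846 to 30463 in the SCA1 KI cerebellum. WT cortex B held 378 normalized counts of the striatal receptor gene Drd2, where SCA1 KI cortex F held 222 and the rest 18.8 to 94.1. Tcf7l2, a marker of thalamus and midbrain, lay between 1480 and 2404 in the WT cerebellum and between 210 and 249 in the SCA1 KI cerebellum, and Hoxb5, a gene of hindbrain and spinal cord, reached 197 in WT cerebellum 2. Of 13 tested midbrain and thalamus genes, 3 were called higher and 1 lower in the SCA1 KI than in the WT cortex (limits below). Over all genes the shares were 4.82% and 10.8%. The summed level of that list overlapped, at 9039 to 9873 in the WT and 8194 to 9720 in the SCA1 KI cortex. Pou4f1 and Pax2, given at the end, were higher in every SCA1 KI cortex library than in any WT one. The part of tissue differences in the cortex and cerebellum results was not tested. In whole tissue, fewer cells of a type and less RNA per cell cannot be told apart.

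The upstream sequences of the genes that differed in the cortex are shown first, to let their base composition and short motifs be read beside the values. RefSeq start sites on GRCm38.p6 were found for 7 of 7 members, as 11 windows of 250 bases before the start, each written 5′ to 3′ on the strand of the gene. Capitals mark every match, on either strand, of the GC box (GGGCGG), of the TATA box (TATAAA), of the E box (CACGTG) or of an octamer bound by Capicua, the DNA-binding partner of ataxin-1 (TGAATGAA, TGAATGGA, TCAATGAA or TCAATGGA).
Reln, chr5:22344706-22344955, minus strand: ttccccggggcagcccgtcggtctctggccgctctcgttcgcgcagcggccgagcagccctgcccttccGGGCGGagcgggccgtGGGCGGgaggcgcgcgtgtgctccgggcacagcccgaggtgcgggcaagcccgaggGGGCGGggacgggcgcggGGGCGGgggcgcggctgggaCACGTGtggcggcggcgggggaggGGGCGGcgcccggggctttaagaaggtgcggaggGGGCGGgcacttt
Gad1, chr2:70561879-70562128, plus strand: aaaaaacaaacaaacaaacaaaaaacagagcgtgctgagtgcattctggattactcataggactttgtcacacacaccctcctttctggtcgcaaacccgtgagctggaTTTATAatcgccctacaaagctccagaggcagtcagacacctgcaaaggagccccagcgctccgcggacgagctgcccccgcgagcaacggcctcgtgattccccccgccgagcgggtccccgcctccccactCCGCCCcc
Pvalb, first start, chr15:78206401-78206650, minus strand: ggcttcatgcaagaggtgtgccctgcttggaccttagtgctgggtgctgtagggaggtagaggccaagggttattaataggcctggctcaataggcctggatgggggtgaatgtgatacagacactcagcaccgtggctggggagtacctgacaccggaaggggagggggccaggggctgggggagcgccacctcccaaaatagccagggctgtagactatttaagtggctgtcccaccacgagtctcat
The Reln window was 80.0% G and C with 37 CpG, where the median of all 32851 windows was 52.4% and 6, and it held 6 GC boxes and 1 E box. The Gad1 window, which precedes a start inside the annotated gene, was 58.0% G and C and held 1 GC box and 1 TATA box. The Pvalb window, at 58.4% G and C and 4 CpG, held no match. A second Pvalb window, before a start inside the annotated gene, was 71.6% G and C with 23 CpG and also held none. Among all windows, 32.7% held a GC box, 12.4% a TATA box, 6.02% an E box and 3.19% a Capicua octamer. Of the 11 windows of the members, 0 held a Capicua octamer, which says only that these letters were not in these windows.

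Gad1 (ENSMUSG00000070880.10, chr2:70553072-70602014), Gad2 (ENSMUSG00000026787.3, chr2:22622205-22693874), Slc32a1 (ENSMUSG00000037771.11, chr2:158610767-158615748) and Lhx6 (ENSMUSG00000026890.19, chr2:36081953-36105408) all lie on chromosome 2, and Lhx6 alone of these is on the minus strand (GRCm38, GENCODE vM21). Pvalb (ENSMUSG00000005716.16) lies at chr15:78191114-78206400 on the minus strand, Reln (ENSMUSG00000042453.14) at chr5:21884454-22344702 on the minus strand, and Slc6a5 (ENSMUSG00000039728.15) at chr7:49910146-49963856 on the plus strand. The genes were measured over all their annotated exons together. Exons of Slc32a1 and Reln overlap antisense genes over 697 and 246 bases (Gm14205 and Gm10475), and those of Lhx6 overlap Gm27953 over 104 bases. The use of strand in counting is not given in the sources used here, so reads in these stretches cannot be told apart.

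Levels were compared between genes as normalized counts per kilobase of exon. The length used was that of all annotated exons together (23738 bases for Reln, 4805 for Lhx6), which can exceed that of a single transcript. The order between genes depends on this length. Without division by it, Reln held 3556 and Lhx6 855 normalized counts in the WT cortex. In the WT cortex Gad1 stood highest at 2068 ± 173 (SD, n = 3) and Pvalb followed at 1961 ± 136, and their libraries overlapped. Gad2 at 1363 ± 99.2 and Slc32a1 at 1271 ± 25.6 came next and also overlapped. Lhx6 at 178 ± 14.1 lay above Reln at 150 ± 9.06 in all libraries, and Slc6a5 was last at 0.480 ± 0.319. In the SCA1 KI cortex the libraries of Gad1, Slc32a1, Gad2 and Pvalb, whose means ran from 1575 to 1277 per kilobase, all overlapped their neighbours in the order. In the WT cerebellum Pvalb led at 14742 ± 1421 per kilobase, and Gad1 (3558 ± 32.5), Slc32a1 (2302 ± 74.5), Gad2 (1838 ± 152), Reln (522 ± 65.6), Slc6a5 (120 ± 39.5) and Lhx6 (1.53 ± 0.681) followed with no overlap between neighbours. The order in the SCA1 KI cerebellum was the same, again with no overlap.

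**Figure D1:**
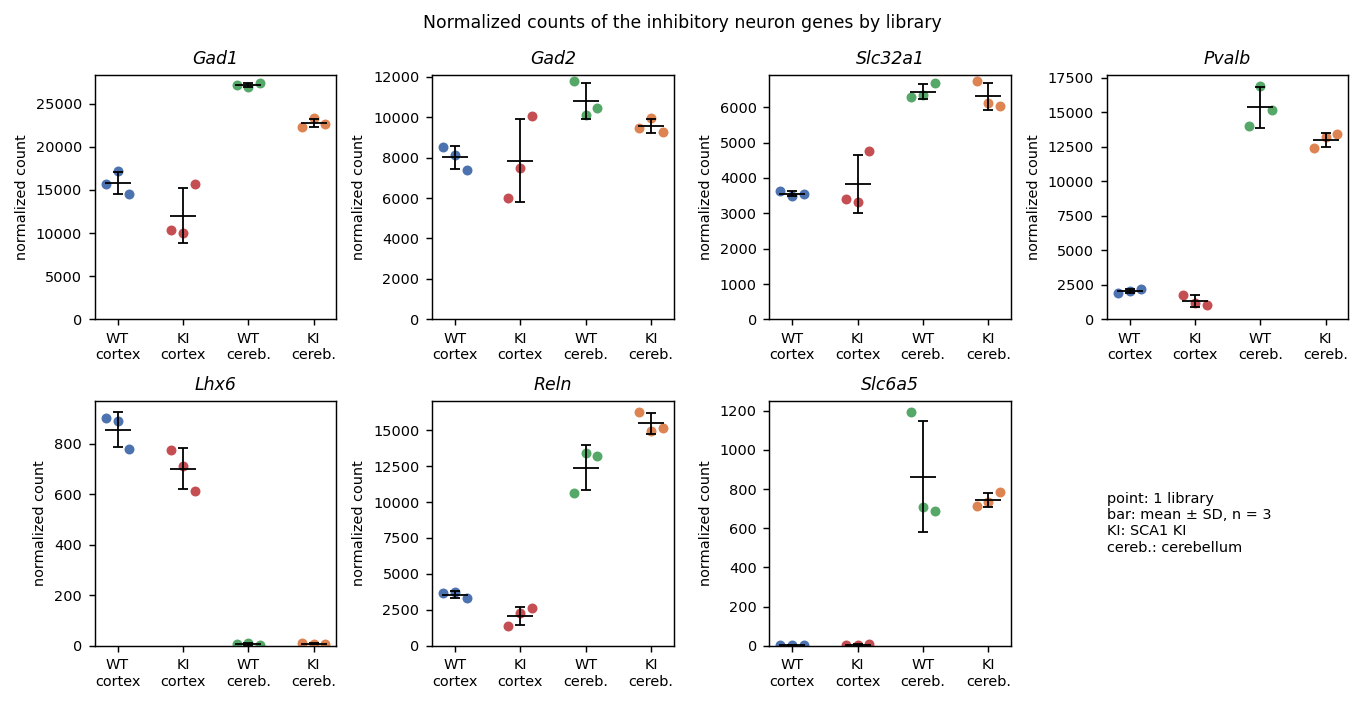
Normalized counts (vertical axes, from 0) of the 7 genes in the 12 libraries. Each point is 1 library, and bars give the mean ± SD of the 3 libraries of a group. Lhx6 is near 0 in the cerebellum and Slc6a5 near 0 in the cortex, and the 3 SCA1 KI cortex libraries spread more widely than the 3 WT cortex libraries in Gad1, Gad2, Slc32a1, Pvalb and Reln.

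The region comparison asked how the inhibitory program of the WT cortex differed from that of the WT cerebellum. A gene was called when limma gave it a Benjamini-Hochberg adjusted p below 0.05 with a log2 fold change (LFC) past 1 in either direction. Of the 7 members 4 were called, against 23.6% of the 15369 genes tested (13.1% higher and 10.4% lower in the cortex), and the WT libraries of the regions did not overlap for any of the 7, against 69.9% of all genes. The cerebellar libraries came from a dataset published earlier, so region and dataset cannot be told apart. Lhx6 was the only member higher in the cortex, with an LFC of 6.75 (SE 0.26, adjusted p = 2.3e-10). Its WT libraries held 683 to 802 reads in the cortex and 4 to 9 in the cerebellum, a ratio of 119 per unit of depth with a 95% counting interval of 76.6 to 194. Slc6a5 was higher in the cerebellum, with 580 to 1305 reads in the WT libraries against 1 to 5 in the WT cortex, a ratio of 260 with a counting interval of 137 to 570. These intervals cover counting error only. The 1305 reads of Slc6a5 were in WT cerebellum 2, the library with high Hoxb5, where WT cerebellum 4 and 6 held 580 and 592. Pvalb was 7.52-fold higher in the WT cerebellum (LFC -2.91, SE 0.16, adjusted p = 3.8e-09), and Reln 3.49-fold (LFC -1.80, SE 0.17, adjusted p = 1.0e-06). The 3 genes of GABA synthesis and loading were also higher there, but by less than the limit: Slc32a1 1.81-fold (LFC -0.86, adjusted p = 1.6e-05), Gad1 1.72-fold (LFC -0.79, adjusted p = 1.7e-04) and Gad2 1.35-fold (LFC -0.43, adjusted p = 0.015).

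Lists of related genes were compared between the regions in the same way, against 13.1% of all genes higher and 10.4% lower in the WT cortex. Of 18 tested genes of forebrain interneuron development 11 were higher in the WT cortex and 2 were lower. Dlx2 (LFC 7.73, adjusted p = 4.1e-10) and Dlx5 (LFC 7.19, adjusted p = 4.2e-10), homeobox genes of the ganglionic eminences, were among them. Prox1, which is also used by cerebellar granule cells, was lower in the cortex (LFC -2.11, adjusted p = 5.9e-09). Among 22 interneuron subclass markers 12 were higher in the cortex, including Npy (LFC 2.98), Cck (LFC 3.33) and Crhbp (LFC 4.34), and 4 were lower, including Calb1 (LFC -2.63) and Calb2 (LFC -4.72), which Purkinje and granule cells also use. Of 12 genes of glycine handling 4 were lower in the cortex, among them Slc6a9, the glycine transporter GlyT1 (LFC -1.70, adjusted p = 3.8e-07), and the receptor gene Glra1 (LFC -3.66, adjusted p = 0.0012). WT cerebellum 2, the library with high Hoxb5, held the most Glra1 of the cerebellum libraries, as given below.

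In the cortex, Reln, Pvalb and Gad1 fell in SCA1 KI mice, to 58.7%, 65.1% and 76.2% of the WT mean, and no member rose. In limma these 3 of 7 members passed the thresholds for genotype (adjusted p below 0.05, LFC past 0.25 in either direction), against 15.6% of the 15369 genes tested, of which 4.82% were higher and 10.8% lower. The median LFC was -0.29 over the 7 members and -0.0028 over all genes. Gad2, Slc32a1, Lhx6 and Slc6a5 did not pass the test. SCA1 KI and WT libraries were fully separated for Pvalb, Lhx6 and Reln, 3 of 7 members against 30.9% of all genes. Without SCA1 KI cortex F, the library with high olfactory bulb genes, the same number of members was called.

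**Figure D2:**
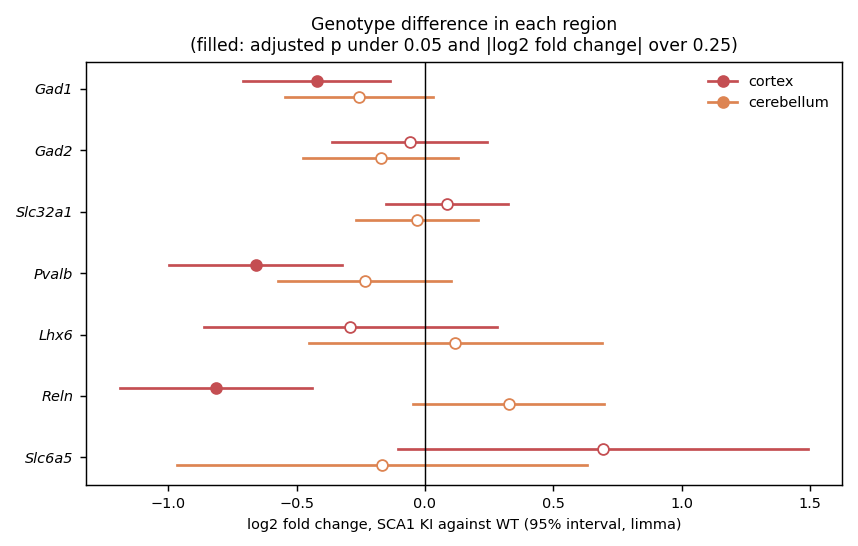
LFC of SCA1 KI against WT (horizontal axis, log2) for the 7 genes in the cortex and in the cerebellum, with the 95% interval from limma. Filled points are called genes: Reln at -0.81, Pvalb at -0.66 and Gad1 at -0.42 in the cortex.

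Gad1 held 15672, 17177 and 14543 normalized counts in WT cortex B, C and D, and 10391, 9960 and 15740 in SCA1 KI cortex A, E and F. SCA1 KI cortex A and E lay below every WT library, while F lay among them, so the groups overlapped. The LFC was -0.42 (SE 0.13, adjusted p = 0.045, limma), which is close to the threshold. The call was lost in edgeR (LFC -0.38, adjusted p = 0.076), when each region was fitted on its own (adjusted p = 0.14) and in 10 of the 12 fits that left out 1 library. It stayed without WT cortex D and without SCA1 KI cortex F, and without F the LFC was -0.63 with an adjusted p of 0.00019.

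Gad2, which makes the pool of GABA tied to vesicles, held 8521, 8132 and 7375 normalized counts in the WT cortex and 6008, 7479 and 10059 in SCA1 KI cortex A, E and F. Library F lay above every WT library and A below every one. The LFC was -0.06 with a 95% interval of -0.36 to 0.24 (adjusted p = 0.82). Slc32a1 held 3634, 3493 and 3540 in the WT cortex and 3392, 3312 and 4775 in SCA1 KI cortex A, E and F. A and E lay slightly below the WT libraries and F above them. Its LFC was 0.09 with an interval of -0.15 to 0.32 (adjusted p = 0.65), and -0.085 without F. Library F was thus the highest of the 3 SCA1 KI cortex libraries in Gad1, Gad2 and Slc32a1, and it was also the highest in Cdhr1 and in Dlx1, an interneuron gene with 2171 normalized counts in F against 781 to 1117 in the other cortex libraries. The part of the olfactory bulb genes in these values was not tested.

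**Figure D3:**
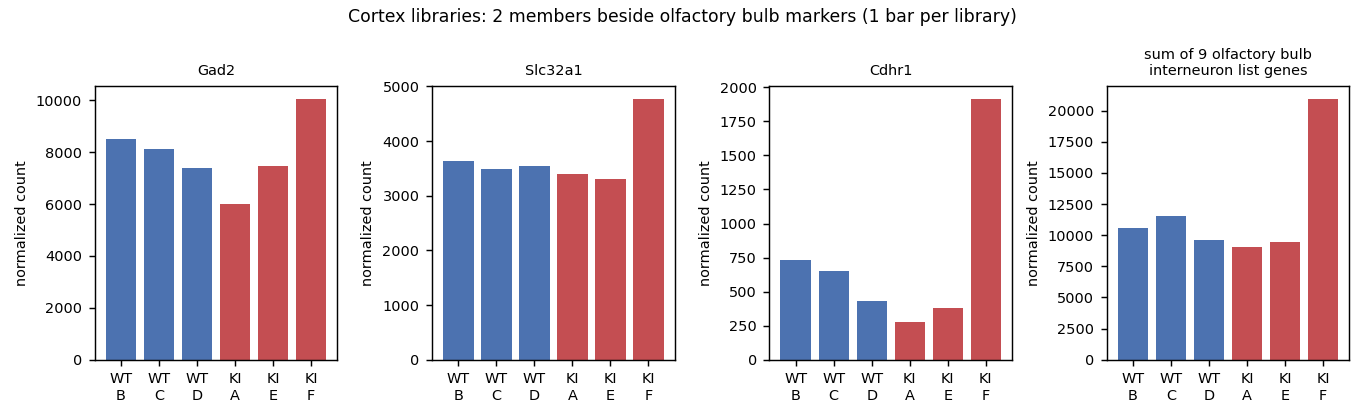
Normalized counts (vertical axes, from 0) of Gad2, Slc32a1, the mitral cell gene Cdhr1 and the summed list of 9 olfactory bulb genes, which includes Cdhr1, in the 6 cortex libraries, 1 bar per library. SCA1 KI cortex F is the highest of the 6 in each panel, with 20956 for the summed list.

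Pvalb held 1888, 2070 and 2167 normalized counts in WT cortex B, C and D, and 1799, 1164 and 1026 in SCA1 KI cortex A, E and F. Even the highest SCA1 KI library, A, was below the lowest WT library, by a small margin. The LFC was -0.66 (SE 0.16, adjusted p = 0.011), and Pvalb was called in each of the 11 settings that kept all libraries and in each of the 12 fits that left out 1 library, with LFCs from -0.90 without A to -0.49 without F. The adjusted p came close to the threshold with each region fitted on its own (0.0496) and without SCA1 KI cortex E (0.042). Leaving out both F and WT cortex B, the library with high striatal genes, gave an LFC of -0.55 with an adjusted p of 0.0503. Lhx6, the factor that specifies parvalbumin and somatostatin interneurons, held 901, 888 and 778 in the WT cortex and 776, 712 and 614 in the SCA1 KI cortex. The groups did not overlap, by a narrow margin, and the LFC of -0.29 did not pass the test (interval -0.86 to 0.28, adjusted p = 0.50).

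Genes that fast-spiking parvalbumin cells are known for fell broadly in the cortex. Of 22 tested fast-spiking parvalbumin cell genes 18 fell and 0 rose, against 10.8% and 4.82% of all genes, with a median LFC of -0.54. Their libraries did not overlap for 19, against 30.9% of all genes. The number called was 18 in edgeR and in DESeq2, 16 without F, 14 without both F and WT cortex B, and 14 to 19 when 1 library was left out. Syt2, a vesicle calcium sensor of fast synapses, held 2158, 2023 and 1622 normalized counts in the WT cortex and 978, 1058 and 1029 in the SCA1 KI cortex (LFC -0.91, SE 0.09, adjusted p = 3.1e-05). The highest SCA1 KI library was well below the lowest WT library. Kcnc1, a Kv3 channel gene that serves rapid firing, fell with an LFC of -0.81 (SE 0.08, adjusted p = 3.4e-05), and Kcna2, a Kv1 channel gene of axons, with an LFC of -0.80 (SE 0.08, adjusted p = 5.3e-05). Kcnc2, another Kv3 gene, had an LFC of -0.24 (adjusted p = 0.53). Other neurons use several of these genes too, and the excitatory neuron gene Slc17a7 fell beside them, from 59871 to 62252 in the WT cortex to 41176 to 47425 in the SCA1 KI cortex (LFC -0.50, adjusted p = 0.0081). In the cerebellum 7 of the 22 fell and 0 rose, against 4.44% and 0.917% of all genes, with a median LFC of -0.12. Without SCA1 KI cerebellum 1 or without 3, 4 fell.

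Reln held 3653, 3706 and 3310 normalized counts in WT cortex B, C and D, and 1403, 2263 and 2599 in SCA1 KI cortex A, E and F. Every SCA1 KI library lay below every WT library. The LFC was -0.81 (SE 0.17, adjusted p = 0.0059), the largest fall among the members, and Reln was called in each of the 11 settings that kept all libraries and in each of the 12 that left out 1, with LFCs from -0.99 without F to -0.55 without A. Removing the trend on length and GC content gave -0.58. Among the SCA1 KI libraries, A was the lowest in Reln and the highest in Pvalb, and F the highest in Reln and the lowest in Pvalb.

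Of 14 other genes of the reelin pathway 3 fell in the cortex and 0 rose, against 10.8% and 4.82% of all genes. Their median LFC was -0.05, where that of all genes was -0.0028. The count was 3 in edgeR, in DESeq2 and in each fit that left out 1 library. Dab1, the adaptor phosphorylated when reelin binds, held 5314, 5047 and 4723 in the WT cortex and 3800, 4297 and 3921 in the SCA1 KI cortex, with no overlap (LFC -0.33, SE 0.07, adjusted p = 0.0040). Dab2ip, which binds Dab1, fell by 0.54 on the log2 scale (adjusted p = 4.2e-04), and Src, one of the kinases of the pathway, fell by 0.45 (adjusted p = 0.0047). The receptor genes Vldlr (LFC 0.02, adjusted p = 0.87) and Lrp8 (LFC -0.08, adjusted p = 0.67) did not pass the test, and neither did the kinase gene Fyn (LFC 0.02, adjusted p = 0.87).

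Slc6a5 was near the limit of detection in the cortex, with 9 reads over the 3 WT libraries and 18 over the 3 SCA1 KI libraries, a ratio of 1.69 per unit of depth with a counting interval of 0.719 to 4.26. No difference was detectable at this depth. Of 12 genes of glycine handling 2 fell in the cortex, Glrb, whose product anchors glycine receptors (LFC -0.37, SE 0.06, adjusted p = 0.0014), and Gldc, of the glycine cleavage system (LFC -0.36, SE 0.10, adjusted p = 0.024). These 2 of 12 are not far from the 10.8% of all genes that fell. The number was 1 without WT cortex C, without WT cortex D or without SCA1 KI cortex A.

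In the cerebellum limma called 0 of 7 members, against 5.36% of all genes (0.917% higher and 4.44% lower), and 0 had an unadjusted p under 0.05. In edgeR and in DESeq2 0 were called as well. The genotypes did not overlap for 4 members, Gad1, Gad2, Pvalb and Reln, against 31.8% of all genes. Gad1 held 27145, 26952 and 27445 normalized counts in WT cerebellum 2, 4 and 6 and 22287, 23305 and 22684 in SCA1 KI cerebellum 1, 3 and 5. The libraries within each genotype were close together, with SDs of 0.913% and 2.25% of the mean, and the SCA1 KI mean was 83.7% of the WT mean. The LFC of -0.26 (SE 0.13, interval -0.54 to 0.03) gave an adjusted p of 0.35 in the fit over both regions, whose estimate of spread for Gad1 includes the wide SCA1 KI cortex. With the cerebellum fitted on its own the adjusted p was 0.015, and without SCA1 KI cortex F it was 0.035, so that Gad1 was called in both. The WT cerebellum libraries also held more of the midbrain marker Tcf7l2 than the SCA1 KI ones, as given above. The part of midbrain tissue in the cerebellum values of Gad1, Gad2 and Pvalb was not tested.

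Pvalb, which Purkinje cells and molecular layer interneurons share, held 13987, 16922 and 15131 in the WT cerebellum and 12406, 13208 and 13392 in the SCA1 KI cerebellum (LFC -0.24, adjusted p = 0.50). Gad2 held 11808, 10120 and 10466 in the WT and 9470, 9943 and 9277 in the SCA1 KI cerebellum (LFC -0.17, adjusted p = 0.61). For both genes every SCA1 KI library lay below every WT library. Reln held 10604, 13379 and 13214 in the WT cerebellum and 16297, 14959 and 15139 in the SCA1 KI cerebellum, where every library lay above every WT library (LFC 0.33, SE 0.17, interval -0.05 to 0.70, adjusted p = 0.37). Slc32a1 held 6296, 6339 and 6677 in the WT and 6740, 6128 and 6051 in the SCA1 KI cerebellum, with overlap (LFC -0.03, interval -0.27 to 0.21). WT cerebellum 2 was the highest of the WT libraries in Gad2 and the lowest in Pvalb and Reln.

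Slc6a5 held 1191, 708 and 690 normalized counts in WT cerebellum 2, 4 and 6, and 714, 734 and 784 in the SCA1 KI cerebellum. WT cerebellum 2 lay above every SCA1 KI library, and WT cerebellum 4 and 6 lay below every one (LFC -0.17, SE 0.37, adjusted p = 0.88, and 0.089 without WT cerebellum 2). The same library held 1150 normalized counts of Glra1, the glycine receptor gene of brainstem and spinal cord, where the other cerebellum libraries held 109 to 278, and the high Hoxb5 given above. The part of adjoining hindbrain tissue in this value was not tested. Lhx6 rested on 20 reads in the WT and 29 in the SCA1 KI cerebellum, a ratio of 1.09 with a counting interval of 0.598 to 2.04.

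Among the lists in the cerebellum, 8 of 22 interneuron subclass markers fell and 0 rose, against 4.44% and 0.917% of all genes. The 4 with the smallest p were Crhbp, Vip, Sst and Tac1. Sst held 864, 368 and 528 normalized counts in WT cerebellum 2, 4 and 6 and 56.4, 41.2 and 72.6 in the SCA1 KI cerebellum (LFC -3.29, SE 0.25, adjusted p = 1.2e-05). Vip was at 81.5 to 130 in the WT and at 0 to 2.5 in the SCA1 KI cerebellum (adjusted p = 6.5e-06). Tcf7l2 and 7 other genes of a list of 13 tested midbrain and thalamus genes fell with them, Slc17a6 from 2878 to 6803 in the WT to 982 to 1310 in the SCA1 KI cerebellum, and 5 of the 13 were called without WT cerebellum 2, without SCA1 KI cerebellum 1 or without 3. The summed level of that list, most of it from genes that the cerebellum also uses, was 54406 to 61555 in the WT and 53550 to 54902 in the SCA1 KI libraries. Of the GABA transporters, Slc6a11 (GAT-3, of astrocytes in midbrain and brainstem) fell in the cerebellum (LFC -1.48, SE 0.28, adjusted p = 0.0080), with 12038, 4708 and 7264 in the WT and 2552 to 2850 in the SCA1 KI libraries, in the same order of WT libraries as Slc17a6. The part of midbrain tissue in these differences was not tested. Of the 14 reelin pathway genes 0 were called in the cerebellum by limma, edgeR or DESeq2, and 4 had an unadjusted p under 0.05.

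The difference between the regions in the genotype effect was called for 1 of 7 members, Reln, against 8.15% of all genes (3.26% higher and 4.89% lower in the cortex). Region and dataset cannot be told apart here either. The LFC of Reln in the cortex minus that in the cerebellum was -1.14 (SE 0.24, adjusted p = 0.012), and it was called in each of the 9 settings that kept all libraries and in each of the 12 that left out 1, from -1.32 without F to -0.88 without A. For Pvalb this difference was -0.42 (SE 0.22, adjusted p = 0.30), so its fall in the cortex was not shown to differ from its LFC in the cerebellum. It was called only without SCA1 KI cortex A (-0.66, adjusted p = 0.0060), and that of Gad1 only without F (-0.38, adjusted p = 0.033, against -0.17 with all libraries). In the reelin pathway 4 of 14 genes had a lower effect in the cortex and 0 a higher one: Dab2ip (-0.77, adjusted p = 0.0013), Dab1 (-0.52, adjusted p = 0.0047), Rapgef1, an exchange factor downstream of Dab1 (-0.39, adjusted p = 0.011), and Src (-0.50, adjusted p = 0.033). The call of Src was kept in 7 of the 12 fits that left out 1 library. Of the fast-spiking parvalbumin cell genes 8 of 22 had a lower effect in the cortex and 1, Kcnc2, a higher one (1.95, adjusted p = 0.0031). Kcnc2 did not rise in the cortex but fell in the cerebellum (LFC -2.19, SE 0.23, adjusted p = 1.2e-04). The number with a lower effect was 5 without WT cortex B, without WT cortex C, without SCA1 KI cerebellum 1 or without 3.

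Ratios within a library were formed to set the members against each other without regard to depth. In the cortex the ratio of Slc32a1 to Gad1 was 0.232, 0.203 and 0.243 in WT cortex B, C and D and 0.326, 0.333 and 0.303 in SCA1 KI cortex A, E and F. Each SCA1 KI library, F included, exceeded each WT library, and the log2 ratio was higher by 0.51. The exact 2-sided permutation test gave p = 0.1, the smallest p that it can give for 3 against 3 libraries (adjusted p = 0.275 over 11 ratios), so this test could not pass 0.05. Gad2 over Gad1 ran from 0.473 to 0.544 in the WT and from 0.578 to 0.751 in the SCA1 KI cortex, again without overlap (log2 difference 0.36, exact permutation p = 0.1). Reln over Gad1 was 0.233, 0.216 and 0.228 in the WT and 0.135, 0.227 and 0.165 in the SCA1 KI cortex, with overlap at E (log2 difference -0.39, exact permutation p = 0.2), and Pvalb over Gad1 overlapped widely (log2 difference -0.24, exact permutation p = 0.7). In the cerebellum Reln over Gad1 was 0.391, 0.496 and 0.481 in the WT and 0.731, 0.642 and 0.667 in the SCA1 KI libraries (log2 difference 0.58, exact permutation p = 0.1), and Slc32a1 over Gad1 was 0.232 to 0.243 in the WT and 0.263 to 0.302 in the SCA1 KI libraries (log2 difference 0.23, exact permutation p = 0.1). In all, 4 of 11 ratios did not overlap. For ratios the share over all genes was not measured. For single genes it was 30.9% in the cortex and 31.8% in the cerebellum. The mean of Gad1, the divisor, was itself lower in SCA1 KI in both regions. With every tested gene set over Gad1, the median log2 difference was 0.42 in the cortex and 0.25 in the cerebellum. Gad2 in the cortex (0.36) and Slc32a1 in the cerebellum (0.23) lay below these medians, and Slc32a1 in the cortex (0.51) and Reln in the cerebellum (0.58) above.

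**Figure D4:**
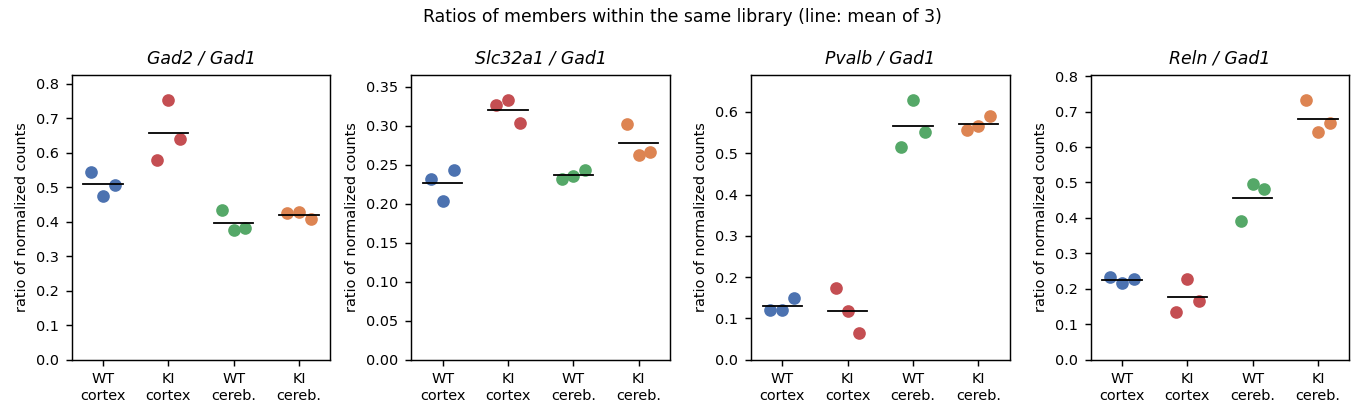
Ratios of normalized counts of Gad2, Slc32a1, Pvalb and Reln to Gad1 within each library (vertical axes, from 0). Points are libraries and lines the means of 3. Slc32a1 over Gad1 lies between 0.303 and 0.333 in the SCA1 KI cortex and between 0.203 and 0.243 in the WT cortex.

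The steps before and after the members in the handling of GABA were followed through lists in the cortex, where 10.8% of all genes fell. The GABA transaminase gene Abat had an LFC of -0.06 (adjusted p = 0.65). Of 7 genes that supply glutamine and glutamate 3 fell, among them Glul, the glutamine synthetase of astrocytes (LFC -0.52, SE 0.08, adjusted p = 8.7e-04), and Slc38a3, a glutamine exporter of astrocytes (LFC -0.32, SE 0.09, adjusted p = 0.031). With the trend on length and GC content removed, 1 of the 7 was called. In the cerebellum 0 of these 7 were called by limma and edgeR and 1 by DESeq2, and 2 had an unadjusted p under 0.05.

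On the receiving side, 7 of 17 tested genes of the inhibitory postsynapse fell in the cortex and 0 rose, against 10.8% and 4.82% of all genes. Their median LFC was -0.25. Gabbr2, a subunit of the GABA-B receptor, fell by 0.56 on the log2 scale (adjusted p = 8.8e-04), and Slc12a5, the chloride exporter KCC2, by 0.33 (adjusted p = 0.0029). Igsf9b, an adhesion gene of inhibitory synapses, held 1092, 1246 and 660 in the WT and 192, 474 and 386 in the SCA1 KI cortex (LFC -1.56, SE 0.29, adjusted p = 0.0024). The scaffold gene Gphn had an LFC of 0.04 (adjusted p = 0.64). In the cerebellum 4 of the 17 fell, including Gabbr1 (LFC -0.34, adjusted p = 0.0087) and Kctd12, an auxiliary subunit of the GABA-B receptor (LFC -0.73, SE 0.08, adjusted p = 1.5e-04), and 1 rose, its relative Kctd8 (LFC 0.44, SE 0.08, adjusted p = 0.0077). Over all genes 4.44% fell and 0.917% rose there.

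Identity genes other than the members were followed through lists as well, against 10.8% of all genes that fell in the cortex. Of 22 interneuron subclass markers 7 fell and 0 rose, with a median LFC of -0.57. The number called was 12 in edgeR, 11 in DESeq2 and 15 with the cortex fitted on its own. With 1 library left out it was 6 to 11, and 11 without WT cerebellum 2 or without WT cerebellum 4. Npy, a peptide gene of somatostatin and neurogliaform cells, held 2655, 2515 and 3008 in the WT and 1737, 1502 and 1424 in the SCA1 KI cortex (LFC -0.81, SE 0.09, adjusted p = 1.1e-04). Erbb4, the neuregulin receptor of interneurons, fell by 0.61 on the log2 scale (adjusted p = 4.0e-04), and Cxcl14 by 0.57 (adjusted p = 0.0024). Sst (LFC -0.69, adjusted p = 0.079) and Vip (LFC -0.99, adjusted p = 0.088) did not pass the test in the fit over both regions. Of 18 tested genes of forebrain interneuron development 2 fell, Maf (LFC -0.66, SE 0.09, adjusted p = 3.5e-04) and Sox6 (LFC -0.34, SE 0.09, adjusted p = 0.024), transcription factors of the same lineage as Lhx6. These 2 of 18 are near the share over all genes. The number that fell was 1 without WT cortex B, without WT cortex C or without SCA1 KI cortex A. With 1 gene that rose, 4 were called without WT cerebellum 2 and in DESeq2, and 5 with the cortex fitted on its own.

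**Figure D5:**
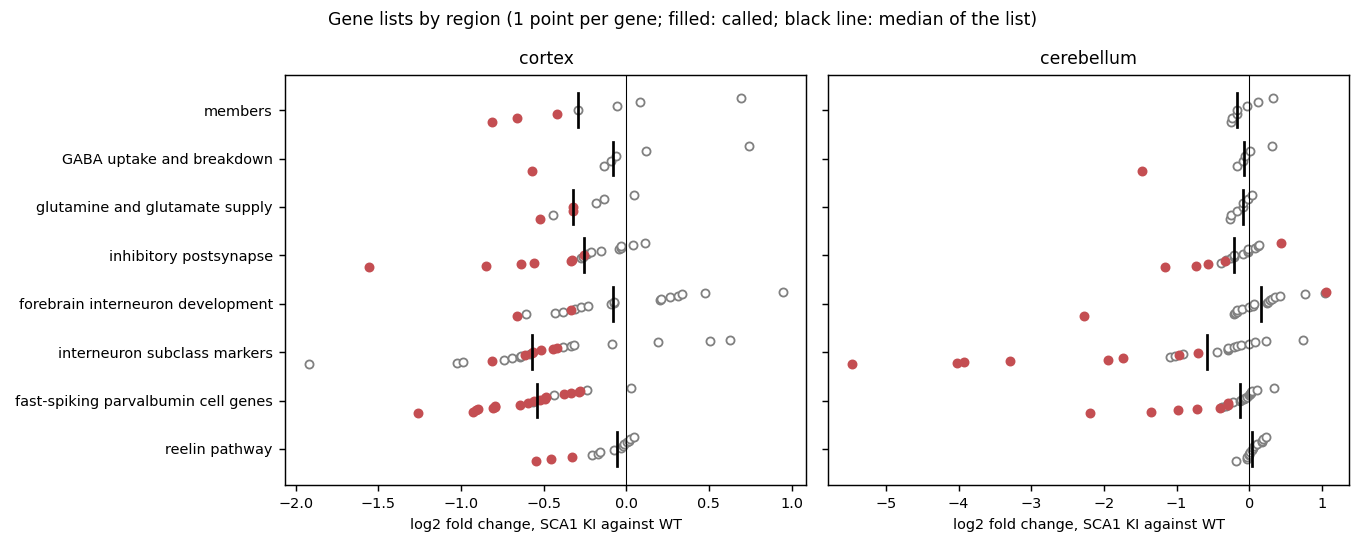
LFC of SCA1 KI against WT (horizontal axes, log2, on different scales in the 2 panels) for the members and 7 gene lists, 1 point per gene. Filled points are called and black lines are list medians. In the cortex 18 of 22 fast-spiking parvalbumin cell genes are filled, with a median of -0.54, and in the cerebellum 7 of 22.

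Markers of other cell types were measured beside these groups in the cortex, where 10.8% of all genes fell and 4.82% rose. Striatal projection neurons are GABA neurons that use Gad1 and Gad2, and the summed level of their list was 35337, 20530 and 21223 in WT cortex B, C and D and 13376, 18706 and 19938 in SCA1 KI cortex A, E and F, with no overlap. Of its 13 tested genes 3 fell and 0 rose, among them Ppp1r1b, which encodes DARPP-32 (LFC -1.21, SE 0.24, adjusted p = 0.0043), and Penk, which encodes proenkephalin (LFC -1.21, SE 0.37, adjusted p = 0.041). Without WT cortex B 2 fell and 2 rose. Of 8 astrocyte genes 5 fell, with a summed level of 262801 to 271472 in the WT and 128359 to 192795 in the SCA1 KI libraries, and 3 were called without WT cortex C or without D. Of 12 genes of cortical excitatory neurons 3 fell, with a summed level of 112283 to 119470 in the WT and 80707 to 96229 in the SCA1 KI libraries, and 5 were called without WT cerebellum 2. Of 8 oligodendrocyte and 8 microglia genes 0 were called in the cortex by limma, edgeR or DESeq2, and 0 had an unadjusted p under 0.05. The part of shifts between cell types in the members' values was not tested.

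The genes with the pattern most like each member were found from log2 values centred on the mean of each region, by Pearson's r over the 12 libraries among 12663 other genes with a mean of at least 100. The libraries share genotype, tissue and depth, so these values describe likeness only. Reln was followed most closely by Nrxn3, a neurexin gene (r = 0.98), Lgr4 (r = 0.98) and Stxbp5l (r = 0.97), and Pvalb by Herpud1 (r = 0.97), Stk19 (r = 0.96) and Arfip2 (r = 0.96). Gad1 was followed by Ednrb, an endothelin receptor gene of astrocytes (r = 0.95), Slc7a10, an amino acid transporter of astrocytes (r = 0.93), and Grm4 (r = 0.93). Gad2 was followed by Clic4 (r = 0.96), Ndnf (r = 0.94) and Abat (r = 0.93). Slc32a1 was followed by Barhl1, Uncx (both r = 0.93) and Inadl (r = 0.92), and Slc6a5 by Ston1 (r = 0.92), Megf6 and Plscr2 (both r = 0.89). Lhx6 had no close likeness, with Psme3 and Tstd2 (both r = 0.78) and Cox10 (r = 0.75) the nearest.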

How the data were processed

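Whole cortices and cerebella of SCA1 KI and WT mice were profiled by RNA sequencing of poly-adenylated RNA, 12 libraries in all. Per the labels and methods, the authors used STAR on mm10 for alignment, featureCounts for gene counts and DESeq2 for normalization (versions not given in the sources used here). The deposited values are a signal: the normalized count of each gene, its reads over a size factor. Multiplied back, 100% of them were whole within a tolerance of 0.01, and the recovered reads served for edgeR 4.0.16 and DESeq2 1.42.0.

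Log2(normalized count + 1) was fitted with limma 3.58.1 (trend on the mean, R 4.3.3) over 12 libraries with 4 group means, for 15369 genes with a mean of at least 10, and p-values were adjusted over all of them (Benjamini-Hochberg). LFCs on this scale understate the change of genes with low counts. Alternatives were pseudocounts of 0.5 and 5, other filters, tools and centrings, removal of the trend on length and GC content, each region on its own and 1 library left out. Leaving out 2 libraries was added after seeing the data. Members and lists were chosen with earlier results of these data known. Named genes were the members, up to 4 called genes of each list and direction with the smallest p, and the 3 genes most like each member. Genes named outside this rule, such as Abat, Fyn, Gphn, Vldlr, Lrp8, Slc17a7 and markers of neighbouring tissue, were chosen after their values were seen. Scripts were tested on simulated data. Libraries of a group differed by more than counting error in all 12 pairs (chi-square of 7.54 to 36.6 for each gene). The largest values were those of SCA1 KI cortex A, 33.5 against E and 36.6 against F, where E against F gave 10.5. Some genes that the rule names are not reported here.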

Additional observations from a re-analysis of the deposited data

Results flagged for a closer look

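Reln was the only member whose genotype effect differed between the regions in the test of that difference, with a log2 fold change in the cortex minus that in the cerebellum of -1.14 (SE 0.24, adjusted p = 0.012, limma). The cerebellar libraries came from an earlier dataset, so region and dataset cannot be told apart in this difference. The 3 SCA1 KI libraries lay below the 3 WT libraries in the cortex and above them in the cerebellum. In the cerebellum alone Reln did not pass the test (log2 fold change 0.33, adjusted p = 0.37, limma), and without WT cerebellum 2 the value was 0.22. Outlying single libraries were not tested, since each group has 3.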

How the results depend on the processing

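The counts of members called, and of ratios without overlap, stayed within 1.5 times of the reported ones in 98 values under alternatives and moved further in 5. The number of members called in the cerebellum was 0, and 1 (Gad1) with each region fitted on its own or without SCA1 KI cortex F (range 0 to 1 over libraries left out). For the difference between the regions it was 1, and 2 without SCA1 KI cortex A or F (range 1 to 2). Between the WT regions it was 4, and 7 with no limit on the log2 fold change. In the cortex it was 2 to 3. The sign turned for log2 values near 0. For SCA1 KI against WT, Slc32a1 in the cortex was -0.085 without both SCA1 KI cortex F and WT cerebellum 2 and -0.069 without both F and WT cortex B (main 0.09, range -0.085 to 0.18 with 1 library left out), and in the cerebellum 0.12 with the length and GC trend removed. Slc6a5 in the cerebellum was 0.089 without both F and WT cerebellum 2 (range -0.30 to 0.089). Ranges with 1 library left out were -0.25 to 0.12 for Gad2 in the cortex and -0.13 to 0.41 for Lhx6 in the cerebellum. The difference between the regions was -0.15 for Gad2 and -0.038 for Slc32a1 without both F and WT cerebellum 2 (ranges -0.082 to 0.29 and -0.054 to 0.21). With Slc32a1 in place of Gad1 as the divisor, the log2 ratios were -0.14 (Gad2) and -0.38 (Lhx6) in the cortex and -0.14 (Gad2), -0.20 (Pvalb) and -0.14 (Slc6a5) in the cerebellum. With 1 library left out, the log2 ratios over Gad1 ran from -0.57 to 0.14 (Pvalb) and -0.036 to 0.43 (Lhx6) in the cortex, and from -0.043 to 0.10 (Pvalb) and -0.056 to 0.35 (Slc6a5) in the cerebellum.

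No paired analysis was possible because the columns carry letters and numbers other than the replicate numbers of the labels. The cause of these changes was not tested. Low reads limit Slc6a5 in the cortex and Lhx6 in the cerebellum.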

Other observations

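Purkinje cells and the interneurons of the cerebellar cortex are among the GABA neurons of the cerebellum that Gad1, Gad2 and Slc32a1 mark. Of 12 Purkinje cell genes 3 fell in the SCA1 KI cerebellum and 0 rose, with a median log2 fold change of -0.29: Pcp4, a calmodulin regulator (-0.68, adjusted p = 3.7e-05, limma), Gng13, a G protein subunit (-0.84, adjusted p = 0.015), and Foxp2, a transcription factor (-0.84, adjusted p = 0.024). The calls of Gng13 and Foxp2 were kept in 9 and 8 of 12 fits that left out 1 library, and only 1 of the 12 genes was called without WT cerebellum 6 or without SCA1 KI cerebellum 1. Calb1 (-0.30, adjusted p = 0.19) and Pcp2 (-0.38, adjusted p = 0.88) did not pass the test. Of 19 tested genes of cerebellar inhibitory interneurons 4 fell, Npy, Chrm2, Klhl1 and Nxph1. Over all genes 4.44% fell in the cerebellum. Klhl1 rose in the cortex (1.22, adjusted p = 0.0018) and fell in the cerebellum (-1.10, adjusted p = 0.0092), and the difference was called (2.32, adjusted p = 8.5e-04).

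Pax2, a transcription factor of immature cerebellar interneurons and of the midbrain, held 11.9, 19.9 and 39.8 normalized counts in the WT cortex and 346, 186 and 132 in SCA1 KI cortex A, E and F (log2 fold change 3.21, SE 0.37, adjusted p = 1.0e-04). Pou4f1, a gene of midbrain nuclei, held 2.2 to 6.8 in the WT cortex and 217 to 372 in the SCA1 KI cortex. In the cerebellum Pax2 lay between 330 and 411 in all 6 libraries. The part of neighbouring tissue in the cortex values was not tested.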
